A study of Rattus norvegicus with 4 samples.

Results

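The potassium channel genes described here are the 32 genes of the deposited matrix whose symbol begins with Kcn followed by a letter and that had at least 100 UMIs (unique molecular identifiers, which count captured transcripts) over all barcodes, with Kcnj8 left out. The matrix listed 32623 genes, and 92 of them had such a symbol. Apart from Kcnj8, 59 Kcn genes fell under 100 UMIs, of which 47 had at least 1 UMI and 12 were at 0. The members just inside the threshold were Kcns1 with 106 UMIs and Kcnn3 with 110, and the genes just outside were Kcnh4 with 94 and Kcnrg with 93. The members comprised 5 Kcna genes, 6 Kcnj genes, 6 Kcnk genes, pairs of Kcnab, Kcnn, Kcnq and Kcns genes, and single genes of other families, among them Kcne2, Kcng2, Kcnip1, Kcnma1 and Kcnmb4.

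Potassium channels let potassium leave or enter the cell and so set its resting voltage. Voltage-gated channels (Kcna and Kcnq among others, with the modulatory Kcng and Kcns subunits) open when the membrane is depolarised, inward rectifiers (Kcnj) pass current near rest, tandem-pore channels (Kcnk) carry a background leak, and calcium-activated channels (Kcnma, Kcnn) couple the voltage to calcium. In brain, glia are known to take up the potassium that neurons release, microglial surveillance and cytokine release depend on potassium efflux, and channels of vascular muscle set the tone of the vessel.

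The study sequenced single cells of dissociated hippocampus from wild-type male adult Sprague Dawley rats aged 10-12 months. The 4 titled samples were NC (negative control), MCAO (middle cerebral artery occlusion on a single side, a stroke model made with a filament inside the vessel), and DEPR and MD, both described as chronic stress. The design text speaks of 20 rats in 2 arms of 10, all with MCAO and with stress added in 1 arm, and of hippocampi from 5 rats an arm, so it does not describe a group without MCAO. What MD abbreviates, and whether animals were pooled in a library, is not stated. The barcodes ended in 4 suffixes, here called sets 1 to 4, and nothing in the labels or files used links a set with one of the titles. Each set is therefore described by itself, and no difference between NC, MCAO, DEPR and MD was computed. With 1 library a set there is no replicate, no p-value is given, and intervals cover counting error only.

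The sets held 7291, 8959, 5884 and 9504 barcodes and 43640627, 46669201, 36242408 and 54295520 UMIs. After filters and removal of doublets 27937 cells remained, and 24655 of them (88.3%) met the marker gate of a cell type. The gate, which used no Kcn gene, gave 11421 microglia, 7956 oligodendrocytes, 2828 endothelial cells, 734 T cells, 501 pericytes, 330 smooth muscle cells, 235 erythroid cells, 164 border macrophages and 159 ependymal cells. The labelled tissue was hippocampus, yet no cell met the neuron gate and 5 met the astrocyte gate, so levels in those types were not measured here. Ependymal cells also carried astrocyte markers (a median of 62.5% of that list), and erythroid cells carried on average 28.6% of the endothelial list. Sets differed in more than these genes: microglia of sets 1 and 2 fell mainly into other clusters than those of sets 3 and 4, and so did oligodendrocytes and endothelial cells. The 4 sets shared 96 barcode sequences in all, between 9 and 27 for a pair of sets.

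Levels are given as CPM, the UMIs of a gene per 1000000 UMIs of a cell type. A 3' UMI count depends on how a transcript's end is captured, so a gene is compared across cell types and sets, and not with another gene. A member was measured against the rest when a type and the other gated cells together held at least 20 UMIs in every set, which 25 of the 32 members did. A call of higher needed a CPM ratio of 2 or more in each of the 4 sets, and a call of lower 0.5 or less, each time with an exact 95% interval (conditional binomial) that excluded 1. The 7 not measured were Kcnj16, Kcnk12, Kcnk16, Kcnma1, Kcnn3, Kcnq1 and Kcns1.

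The members were spread over 6 leading cell types, ranked among the 9 types with at least 100 gated cells. Of the 25 members with at least 50 UMIs in the ranked type where their CPM was highest, 7 led in oligodendrocytes, 6 in smooth muscle cells, 4 in microglia, 4 in ependymal cells, 3 in T cells and 1 in endothelial cells. Some of these leads were not clear of the next type. The interval of the ratio to it included 1 for Kcne2 (0.420 to 6.32) and Kcns1 (0.760 to 173.6) in oligodendrocytes and Kcns3 (0.863 to 1.85) in smooth muscle cells. Kcne2, Kcnmb4 and Kcnn4 led in only 2 of 4 sets. Counted by where most gated UMIs lay, which follows cell numbers as well as level, oligodendrocytes held the largest part of 12 members and microglia of 10. The remaining 7 members, Kcnab2, Kcng2, Kcnj2, Kcnj9, Kcnk12, Kcnn3 and Kcnq1, had fewer than 50 UMIs in their leading type. Types with fewer than 100 cells had a higher CPM for some members, such as Kcnmb4 and Kcnip1 in oligodendrocyte precursors, Kcna3 in monocytes and Kcnk7 in natural killer cells.

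**Figure D1:**
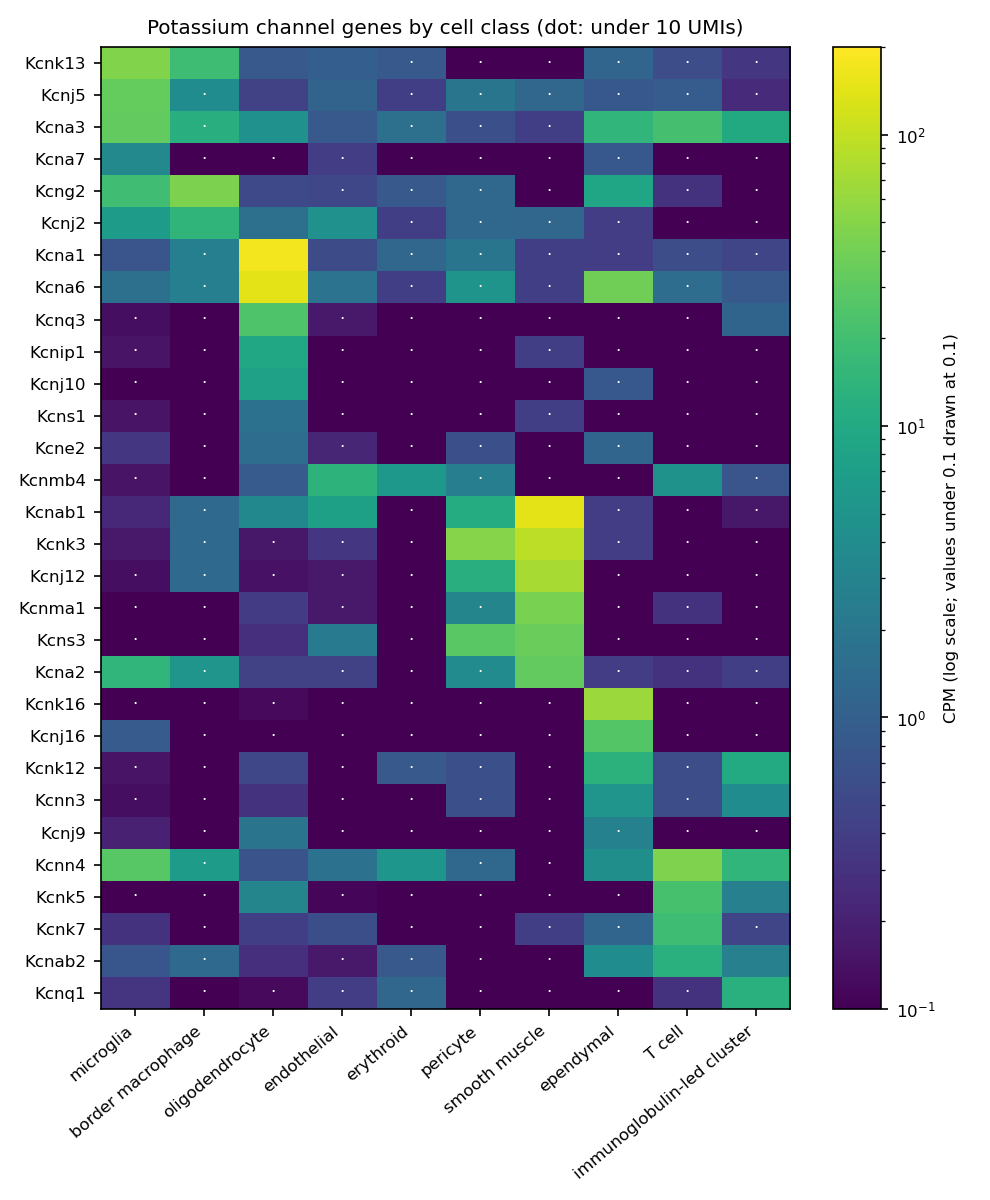
Heat map of CPM (colour, log scale) of 30 potassium channel genes (rows) in 9 gated cell types and an ungated cluster led by immunoglobulin genes (columns), over all 4 sets; a dot marks fewer than 10 UMIs. Kcna1 and Kcna6 stand out in oligodendrocytes at 174 and 146 CPM, and Kcnab1 in smooth muscle cells at 146 CPM.

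**Figure D2:**
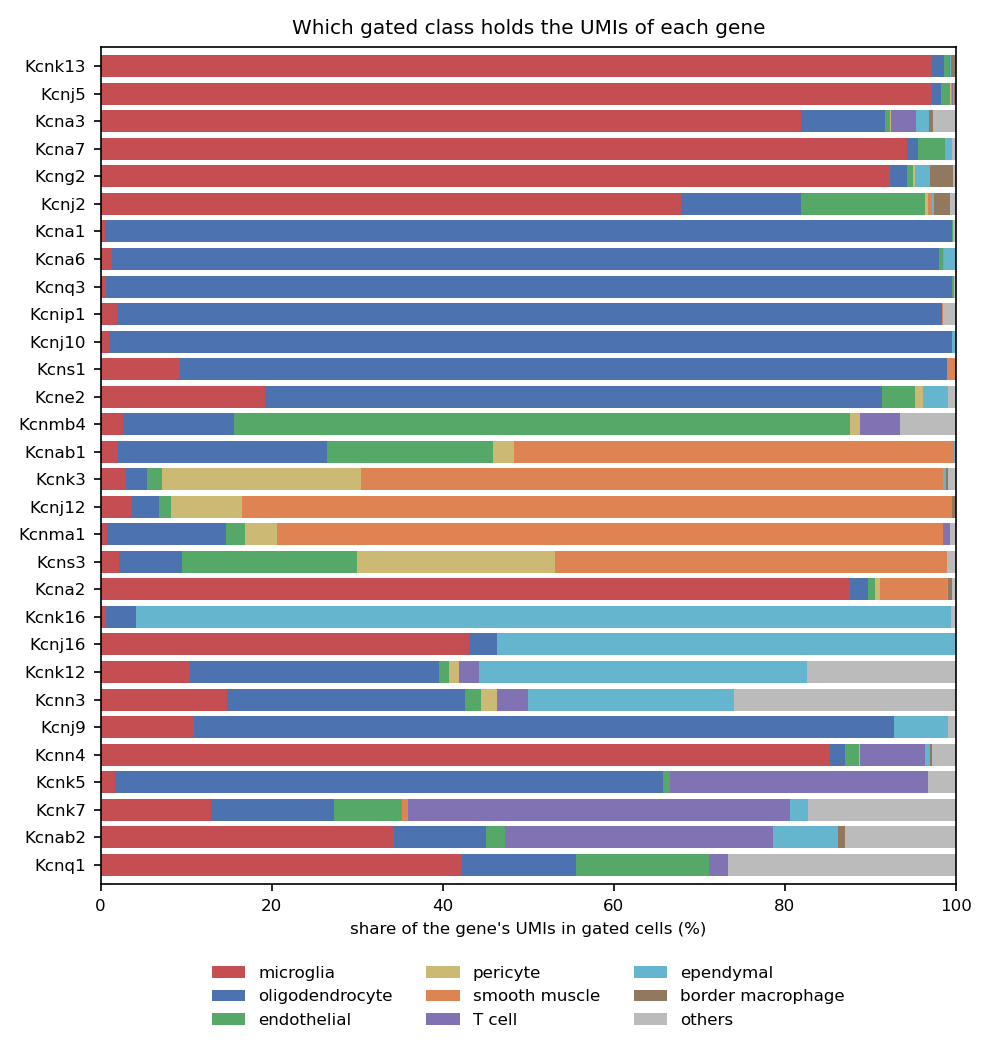
Bars give, for each of 30 genes, the percentage of its UMIs in gated cells that lay in each cell type. Microglia held 97.2% for Kcnk13 and Kcnj5, oligodendrocytes 99.1% for Kcna1, and endothelial cells 71.98% for Kcnmb4.

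In microglia 7 of 25 measured members were called higher, where 9.79% of all 12332 genes tested were, and 13 were called lower, against 30.7% of all genes. The 7 were Kcnk13, Kcnj5, Kcna3, Kcng2, Kcna2, Kcnj2 and Kcna7. Kcnk13, a tandem-pore leak channel known from microglia, stood at 30.8, 34.7, 58.4 and 61.7 CPM in sets 1 to 4, against 0.732, 1.35, 0.675 and 1.14 CPM in the other gated cells. Microglia were thus higher in every set, at a median log2 ratio of 5.58 over the sets. A Kcnk13 UMI was found in 20.3% of microglia (exact binomial 95% interval 19.6 to 21.1, median depth 5065 UMIs) and in 0.478% of oligodendrocytes (median depth 5595). After thinning every cell to 1000 UMIs the shares were 4.27% and 0.0385%. Kcnj5, a subunit of the inward rectifier that G proteins open, had 22.2, 25.3, 40.8 and 41.2 CPM in microglia, and its rest lay between 0.415 and 0.864 CPM. Its median log2 ratio was 5.35, and all 4 sets of microglia lay far above the rest. Border macrophages, the macrophages of brain vessels and meninges, held only 3 Kcnj5 UMIs, or 3.99 CPM. Kcnk13 was less particular to microglia: border macrophages had 18.64 CPM of it from 14 UMIs. The microglial Kcnk13 level was 2.535 times (1.508 to 4.643) that of border macrophages.

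The median of all genes lay at a log2 ratio of -0.65 against the rest in microglia, and TMM scaling moved it to -0.06. Relative to that median the log2 ratios were 6.22 for Kcnk13, 6.001 for Kcnj5, 5.28 for Kcna7, 4.29 for Kcng2, 3.97 for Kcna2, 3.28 for Kcna3 and 2.14 for Kcnj2. The corresponding medians were 0.03 in oligodendrocytes, -0.10 in endothelial cells, 0.44 in pericytes, 0.14 in smooth muscle cells and 0.47 in ependymal cells, and after TMM scaling -0.09, -0.15, 0.04, -0.0017 and -0.06. Kcna7, a Shaker-type subunit, was low, with 3.57 CPM in microglia and 94.3% of its gated UMIs there. Its call in microglia was lost after thinning and with a minimum of 50 UMIs. Kcnj2, a strong inward rectifier, had 6.61 CPM in microglia and 4.73 CPM in endothelial cells, where the call was neither higher nor lower.

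**Figure D3:**
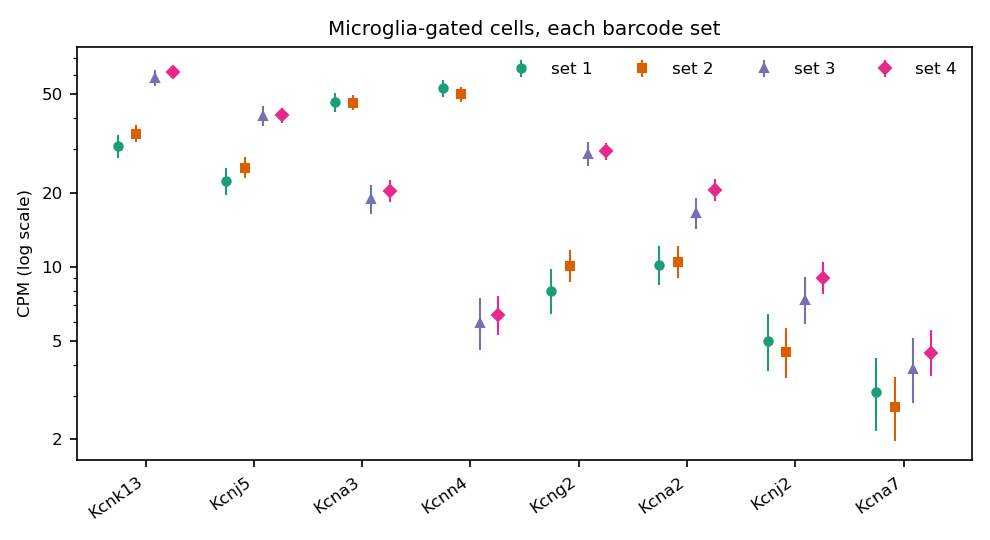
CPM (log axis) of 8 members in microglia of sets 1 to 4, with exact Poisson 95% intervals. Kcnn4 and Kcna3 are higher in sets 1 and 2 (53.0 and 49.99 CPM for Kcnn4) than in sets 3 and 4 (5.90 and 6.37 CPM), and Kcnk13, Kcnj5, Kcng2, Kcna2 and Kcnj2 are higher in sets 3 and 4.

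Between sets a member was measured within a type when its highest and lowest set together held at least 50 UMIs, and was called apart for a ratio of 2 or more whose interval excluded 1. In microglia 6 of 9 measured members lay apart, where 14.8% of 9703 genes did. Kcnn4, the calcium-activated channel of intermediate conductance known from lymphocytes and activated microglia, had 53.0, 49.99, 5.90 and 6.37 CPM in sets 1 to 4. Its levels in sets 1 and 2 did not overlap those in sets 3 and 4, and the ratio of set 1 to set 3 was 8.99 (interval 6.997 to 11.7). For Kcna3, the Shaker-type channel of T cells and microglia, the values were 46.4, 46.3, 18.8 and 20.3 CPM. Sets 1 and 2 were again high, by 2.47 times (2.11 to 2.90). A Kcna3 UMI was found in 13.1% of microglia and 2.78% of oligodendrocytes, and after thinning in 3.62% and 0.411%. The other 4 went the opposite way. Kcng2, a subunit that forms no channel alone and modifies other voltage-gated channels, had 7.997, 10.1, 28.7 and 29.4 CPM, and set 4 was 3.67 times (2.94 to 4.62) as high as set 1. Kcna2 had 10.2, 10.5, 16.5 and 20.5 CPM (ratio 2.02), Kcnk13 a ratio of 2.004 and Kcnj2, with 4.99, 4.50, 7.35 and 9.04 CPM, a ratio of 2.01. These 3 ratios lay at the threshold, and under TMM scaling they were 1.80, 1.78 and 1.75. Kcnj5 followed the same order of sets with a ratio of 1.86 and was not called.

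The contrast of Kcnn4 was also seen within cluster 16, which was not the only cluster that all sets shared. Cluster 16, whose leading genes included the proliferation genes Mki67 and Top2a and whose median depth was low at 1334 UMIs, held 395, 299, 151 and 203 microglia of sets 1 to 4, and Kcnn4 stood there at 70.2, 67.3, 9.13 and 25.1 CPM. The value of set 3 rested on 3 UMIs. Cluster 1 held 35, 33, 79 and 200 microglia of sets 1 to 4 and cluster 2 held 1294, 2350, 31 and 62. Kcnn4 within these other clusters is not described here. Other quantities moved with the sets in microglia. The summed monocyte markers stood at 907, 818, 301 and 330 CPM, the erythroid markers at 419, 349, 28.7 and 50.4 CPM, and median depth per cell at 4725, 4436.5, 6582 and 5651 UMIs. T cells carry Kcnn4 and Kcna3 too, and their markers stood in microglia at 4.73, 5.03, 18.8 and 16.9 CPM. The part of these quantities in the levels was not tested.

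The promoters of Kcna3 and Kcnk13, which moved in opposite directions between sets, are shown as RefSeq gives them for the assembly GRCr8, 250 bases before to 50 after the gene start, 5′ to 3′ on the gene's strand. Capitals mark a match to a searched motif. Kcna3 lies on the plus strand at chr2:197320074-197320373 and holds the PU.1 core GAGGAA, the site of a macrophage factor, at -160 to -155. Kcnk13 lies on the plus strand at chr6:124971559-124971858 and holds the HIF core ACGTG, the site of a hypoxia factor, at -96 to -92.
Kcna3: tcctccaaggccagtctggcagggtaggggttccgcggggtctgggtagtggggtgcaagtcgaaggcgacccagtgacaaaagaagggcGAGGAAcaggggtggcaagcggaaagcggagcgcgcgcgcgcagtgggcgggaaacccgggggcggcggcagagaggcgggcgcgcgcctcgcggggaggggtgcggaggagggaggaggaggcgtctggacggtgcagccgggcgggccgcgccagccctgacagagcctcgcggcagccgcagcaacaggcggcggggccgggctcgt
Kcnk13: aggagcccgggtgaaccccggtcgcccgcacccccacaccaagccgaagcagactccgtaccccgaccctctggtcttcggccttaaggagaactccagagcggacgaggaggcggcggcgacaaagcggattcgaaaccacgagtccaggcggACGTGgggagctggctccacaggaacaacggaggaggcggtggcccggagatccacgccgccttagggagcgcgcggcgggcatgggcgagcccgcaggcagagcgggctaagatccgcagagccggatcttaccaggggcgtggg
All 32 members were matched to RefSeq by symbol and 21 had a promoter in the table. Searched on both strands, GAGGAA was found in 8 of the 21 and in 27.6% of all 33469 promoters. ACGTG was found in 3 of the 21 (19.25% of all), the AP-1 form TGANTCA in 1 (7.33%) and an NF-kB form (GGGA and TTCC with any pair of bases between them) in none (1.3% of all). A match is a description of these letters only.

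Oligodendrocytes are the myelin-forming glia. Among them 8 of 25 measured members were called higher, where 17.6% of all genes were, and 11 were called lower, against 25.6%. The 8 were the Shaker-type subunits Kcna1 and Kcna6, the M-current subunit Kcnq3, the A-type channel modulator Kcnip1, the glial inward rectifier Kcnj10, the G-protein-gated Kcnj9, the acid-sensitive tandem-pore channel Kcnk5 and the accessory subunit Kcne2. Kcna1 had 215, 212.5, 137.7 and 153 CPM in sets 1 to 4 and between 0.764 and 1.15 CPM in the other gated cells. Its median log2 ratio was 7.86. Sets 1 and 2 were higher than sets 3 and 4, and the largest ratio between sets, 1.56 (1.46 to 1.67), stayed under 2. Of oligodendrocytes 57.5% carried a Kcna1 UMI, of microglia 0.376%, and after thinning 14.5% and 0.109%.

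Kcna6, which sits beside Kcna1 in the RefSeq gene order, had 141, 138.5, 147 and 153 CPM and hardly differed between sets (ratio 1.11). It was not limited to oligodendrocytes: ependymal cells had 38.9 CPM, and the ratio of the former to the latter was 3.75 (3.07 to 4.63). Kcnq3 had 32.6, 26.3, 21.9 and 22.8 CPM, 98.9% of its gated UMIs and a median log2 ratio of 7.38. Kcnip1 lay between 8.38 and 11.1 CPM and Kcnj10 between 6.41 and 9.42 CPM, with median log2 ratios of 5.88 and 6.45. Kcnk5 lay between 2.39 and 3.81 CPM in oligodendrocytes, and its CPM was higher in T cells. Kcnj9 (1.84 CPM) and Kcne2 (1.53 CPM) were the lowest of those called. Ependymal cells had 2.805 CPM of Kcnj9 from 7 UMIs, and the interval of their ratio to oligodendrocytes included 1 (0.5965 to 3.275). Oligodendrocyte precursors, with 26 gated cells, were too few to rank, and had 58.8 CPM of Kcnip1 from 7 UMIs and 84.0 CPM of Kcna1 from 10 UMIs.

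Between sets 1 of 10 measured members lay apart in oligodendrocytes, where 9.23% of 9569 genes did. The members named above for oligodendrocytes were not called: their ratios of highest to lowest set ran from 1.11 for Kcna6 to 1.59 for Kcnk5 among those measured.

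**Figure D4:**
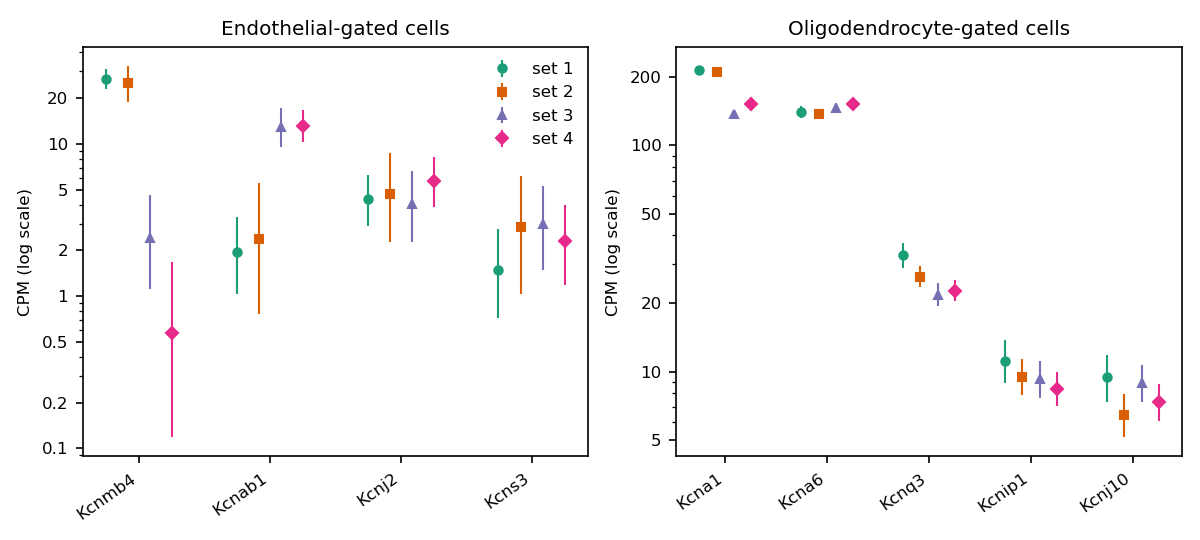
CPM (log axes) of 4 members in endothelial cells (left) and 5 in oligodendrocytes (right) of sets 1 to 4, with exact Poisson 95% intervals. In endothelial cells Kcnmb4 falls from 26.8 and 25.01 CPM in sets 1 and 2 to 2.42 and 0.571 CPM in sets 3 and 4, and Kcnab1 runs the other way.

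In endothelial cells, which line the vessels, none of 25 measured members was called higher there, where 10.3% of all genes were, and 11 were called lower, against 15.8%. The member that came nearest was Kcnmb4, a beta subunit that modifies the large-conductance calcium-activated channel. Kcnmb4 had 26.8, 25.01, 2.42 and 0.571 CPM in sets 1 to 4 of endothelial cells, from 179, 53, 9 and 3 UMIs. The other gated cells had 0.955, 0.776, 0.514 and 0.815 CPM. The endothelial level thus exceeded the rest in sets 1 to 3 and not in set 4, which ended the call. Without set 4 Kcnmb4 was called higher. The ratio of set 1 to set 4 was 46.8 (15.8 to 229), a wide interval, with 3 UMIs in set 4. A Kcnmb4 UMI was found in 16.1% of endothelial cells of set 1, 13.3% of set 2, 1.45% of set 3 and 0.297% of set 4, with median depths of 5648, 4286, 4632 and 3863 UMIs. Over all sets the share was 6.90% of endothelial cells and 0.0788% of microglia, and after thinning 0.903% and 0 of 10981 microglia, which allows up to 0.0273%.

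Endothelial cells of sets 1 and 2 formed cluster 7 and those of sets 3 and 4 cluster 8 for the most part. Within cluster 8, Kcnmb4 stood at 28.8 CPM in the 45 cells of set 1 (14 UMIs), at 2.48 CPM in set 3 and at 0.610 CPM in set 4. In cluster 7 it stood at 27.5 CPM in set 1 and 22.8 CPM in set 2. Between sets 1 and 4 the contrast was therefore as large within cluster 8, with 14 UMIs behind the higher value. Kcnma1, the pore subunit to which Kcnmb4 binds, had 3 UMIs in all endothelial cells. Over the sets together, Kcnmb4 was highest in endothelial cells among the types with at least 100 cells. Erythroid-gated cells (5.76 CPM, 14 UMIs) and T cells (4.87 CPM, 16 UMIs) came next. Endothelial cells led in sets 1 and 2 only. In sets 3 and 4 T cells stood above them, at 5.13 and 5.27 CPM from 4 and 7 UMIs. The 26 oligodendrocyte precursors stood above endothelial cells for Kcnmb4 over the sets together, at 67.2 CPM (29.0 to 132.4) from 8 UMIs in 6 cells.

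Kcnab1, a beta subunit of Shaker-type channels, was the other of the 2 members measured between sets in endothelial cells, and both lay apart, where 15.2% of 8166 genes did. Its levels were 1.94, 2.36, 12.9 and 13.1 CPM. Sets 3 and 4 were high, and set 4 was 6.76 times (3.71 to 13.3) as high as set 1. Kcnab1 was far higher in smooth muscle cells, and in endothelial cells the summed smooth muscle markers stood at 42.6, 36.3, 65.9 and 114 CPM and the pericyte markers at 51.9, 72.7, 105 and 179 CPM. Erythroid markers stood at 11800, 20710, 2154 and 3854 CPM, monocyte markers at 1819, 1578, 567 and 506 CPM, and neuron markers at 1075, 953, 543 and 335 CPM. The part of these marker sums in the levels of Kcnmb4 and Kcnab1 was not tested. Fn1 of the monocyte list and Nrgn of the neuron list were among the leading genes of cluster 7. The monocyte and neuron sums are therefore not particular to monocytes and neurons here. The call of Kcnmb4 between sets was lost with the stricter cell filter (ratio 39.5), with clusters in place of the gate (56.8) and after thinning (7.93), and without set 4 the ratio, then to set 3, was 11.0. That of Kcnab1 was lost with the stricter gate (9.04), after thinning (3.21) and with a minimum of 100 UMIs. All of these ratios stayed above 2, so the lost calls failed the UMI minimum or the interval and not the fold threshold. With clusters in place of the gate only cluster 8 was classed as endothelial. Cluster 7, which held 81.9% and 78.0% of the gated endothelial cells of sets 1 and 2, was in no class and so was left out. Kcnj2, from 4.04 to 5.71 CPM, and Kcns3, from 1.49 to 2.96 CPM, had overlapping intervals in all 4 sets of endothelial cells.

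The promoters of both endothelial members are shown because their levels ran opposite ways across the sets. Kcnmb4 lies on the minus strand at chr7:54005052-54005351 and Kcnab1 on the plus strand at chr2:151614301-151614600 (GRCr8, RefSeq), and neither holds any of the 4 motifs searched, so no letter is in capitals.
Kcnmb4: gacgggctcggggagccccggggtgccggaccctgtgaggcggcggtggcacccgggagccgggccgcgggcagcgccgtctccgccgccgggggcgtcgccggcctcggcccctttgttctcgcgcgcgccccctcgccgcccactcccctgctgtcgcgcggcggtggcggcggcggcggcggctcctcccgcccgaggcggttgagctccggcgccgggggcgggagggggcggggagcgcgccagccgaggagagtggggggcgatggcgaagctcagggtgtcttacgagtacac
Kcnab1: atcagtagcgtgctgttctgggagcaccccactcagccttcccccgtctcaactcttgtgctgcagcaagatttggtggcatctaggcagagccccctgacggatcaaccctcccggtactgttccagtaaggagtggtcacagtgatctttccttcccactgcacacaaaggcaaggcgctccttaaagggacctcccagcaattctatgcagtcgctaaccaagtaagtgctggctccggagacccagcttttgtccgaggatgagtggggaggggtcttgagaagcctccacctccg

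Smooth muscle cells of the vessel wall carried 6 called members, where 7.76% of all genes were called higher, among them Kcnab1, Kcnk3, Kcnj12, Kcns3 and Kcna2. A further 5 were called lower, where 8.44% of all genes were, among them Kcna1 and Kcnk13. Kcnab1 had 254, 198, 96.2 and 99.3 CPM in sets 1 to 4 and a median log2 ratio of 6.03 against the rest. Sets 1 and 2 were the higher ones, the reverse of their order in endothelial cells, and set 1 was 2.64 times (1.95 to 3.62) as high as set 3. A UMI of Kcnab1 was found in 52.1% of smooth muscle cells (median depth 7727.5 UMIs) and 0.123% of microglia, and after thinning in 11.7% and 0.0182%. Kcnk3, an acid-sensitive leak channel, had 139, 82.1, 91.6 and 70.9 CPM, with set 1 the highest. Kcnj12, a strong inward rectifier, lay close together in all sets, from 65.9 to 77.9 CPM, and had the largest median log2 ratio of any called member, 8.14. Kcns3, at 20.1, 18.2, 38.2 and 49.1 CPM, was higher in sets 3 and 4, and set 4 was 2.69 times (1.15 to 7.72) as high as set 2. The large-conductance pore gene Kcnma1 was highest in smooth muscle cells too, at 43.3 CPM with 77.9% of its gated UMIs. Kcna2, at 18.3, 42.6, 32.1 and 37.1 CPM, was called higher in smooth muscle cells as well as in microglia, and its smooth muscle level was 2.18 times (1.71 to 2.75) the microglial one.

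Pericytes, the contractile cells of capillaries, shared part of this set. Of the members 2 were called higher, where 6.81% of all genes were: Kcnk3, at 63.5, 56.8, 40.1 and 47.0 CPM, and the modulatory subunit Kcns3, at 19.5, 17.04, 26.1 and 42.7 CPM. Kcna1 and Kcna6 were called lower, where 4.64% of all genes were. Kcns3 did not separate both mural types, with 35.6 CPM in smooth muscle cells and 28.4 CPM in pericytes (ratio 1.25, interval 0.863 to 1.85). Kcnk3 was higher in smooth muscle cells, by 1.85 times (1.43 to 2.43). Kcnj12 and Kcnab1 were lower in pericytes, at 11.6 and 10.9 CPM. The 17 Kcnab1 UMIs of pericytes gave 22.0, 22.7, 6.02 and 2.14 CPM in sets 1 to 4, from 9, 4, 3 and 1 UMIs. The values of sets 1 and 2 were the higher ones, as in smooth muscle cells, but rest on too few UMIs to settle the order. The interval of set 2 against set 4, the highest and lowest value, ran from 1.05 to 524. It treats UMIs as independent, while the 4 UMIs of set 2 came from 2 cells. The calls of higher in both mural types were lost after thinning, and that of Kcns3 also with the stricter cell filter, the stricter gate or clusters in place of the gate. The gates of both types overlap, since smooth muscle cells carried a median of 50% of the pericyte markers.

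**Figure D5:**
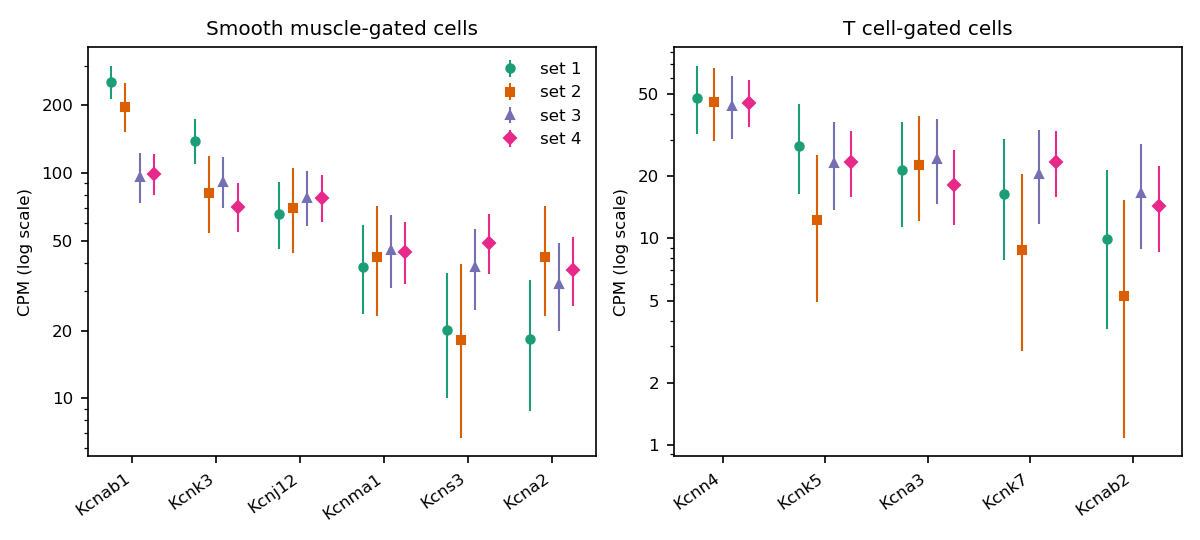
CPM (log axes) of 6 members in smooth muscle cells (left) and 5 in T cells (right) of sets 1 to 4, with exact Poisson 95% intervals. Kcnab1 in smooth muscle cells is at 254 and 198 CPM in sets 1 and 2 and at 96.2 and 99.3 CPM in sets 3 and 4, and Kcnn4 in T cells lies between 43.6 and 47.8 CPM in all sets.

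In T cells 3 members were called higher, where 5.77% of all genes were: the tandem-pore channels Kcnk5 (22.2 CPM) and Kcnk7 (18.9 CPM) and the beta subunit Kcnab2 (12.5 CPM). The 4 called lower, where 13.3% of all genes were, were Kcna1, Kcna6, Kcnk13 and Kcnq3. Kcnk5 had 28.0, 12.3, 23.1 and 23.3 CPM in sets 1 to 4 and Kcnk7 16.5, 8.76, 20.5 and 23.3 CPM, with set 2 lowest for both, from 7 and 5 UMIs. The 3 calls were lost after thinning and with a minimum of 50 UMIs, and those of Kcnk7 and Kcnab2 also with the stricter gate. The T cell channel Kcnn4 had 47.8, 45.6, 43.6 and 45.2 CPM. It hardly differed between sets in T cells, in contrast to microglia, where it fell from 53.0 to 5.90 CPM between sets 1 and 3. The difference between these patterns was not tested. The other gated cells had 22.1, 25.8, 2.78 and 3.40 CPM, so Kcnn4 was not called higher in T cells, and T cells led only in sets 3 and 4. Kcna3, the other potassium channel known from T cells, had 21.0 CPM there and 32.6 CPM in microglia, which led in 3 of 4 sets. Among types with too few cells to rank, 61 monocytes had 93.6 CPM of Kcna3 (65.2 to 130.2) from 35 UMIs, and 46 natural killer cells 60.9 CPM of Kcnk7 from 14 UMIs.

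Ependymal cells, the ciliated lining of the ventricles, were the deepest ranked type, with a median of 14110 UMIs, so their levels are compared as CPM and after thinning. Of 25 measured members 1 was called higher there, where 10.7% of all genes were. Kcna1 and Kcnk13 were called lower, where 6.17% of all genes were. Kcnk16, an alkaline-activated leak channel known from pancreas, was close to limited to ependymal cells among the gated types: it had 63.7 CPM and 95.2% of its gated UMIs there, and 1 UMI in 11421 microglia. Its values were 60.6, 59.0, 95.7 and 64.5 CPM, with overlapping intervals. A Kcnk16 UMI was found in 60.4% of ependymal cells and 0.00876% of microglia, and after thinning in 6.33% and 0 of 10981 microglia, which allows up to 0.0273%. Kcnj16, which pairs with Kcnj10, had 26.4 CPM and was highest in ependymal cells in all 4 sets. Kcnk16 and Kcnj16 did not reach the UMI minimum of the call rule, and sets 3 and 4 held 21 and 15 ependymal cells. Ependymal cells of sets 1 and 2 also carried Kcna3 at 15.6 and 20 CPM. Those of sets 3 and 4 had no UMI, which at 3 counts allows up to 12.0 and 19.3 CPM. The exact 95% upper limits for no UMI were 14.7 and 23.8 CPM, the latter above the level of set 2.

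For a few members many UMIs lay outside the gate. Cluster 17, whose 677 ungated cells were led by immunoglobulin genes (Ighm, Jchain, Mzb1) and had a median depth of 18396 UMIs, was singled out after the values were seen. It held 72.7% of all UMIs of Kcnq1 (152 of 209), 54.5% of Kcnk12 and 44.5% of Kcnn3. Kcnq1, a delayed rectifier of epithelia and heart, stood there at 10.9, 11.0, 20.2 and 14.5 CPM, against 0.123 CPM in oligodendrocytes and 5.77 CPM in the 95 gated B cells (9 UMIs, 7.37% of cells), and a UMI was found in 17.4% of its cells (1.52% after thinning) and 0.0628% of oligodendrocytes (0.0128%). Kcnk12, a relative of Kcnk13, stood at 9.41, 12.3, 10.1 and 9.54 CPM and hardly differed between sets; it had 13.2 CPM in ependymal cells and 5.77 CPM in B cells. Kcnn3, a calcium-activated channel of small conductance, had 4.04 CPM in the cluster, 5.21 CPM in ependymal cells and 8.97 CPM in B cells (14 UMIs). Kcnn4 had 14.9 CPM in the ungated cells of cluster 17. Of the 95 gated B cells 36 lay in cluster 17 too, so the B cells compared here were not apart from that cluster. Border macrophages had no member called higher (0.933% of all genes were) and 1 called lower, Kcna1 (2.63%), and erythroid cells had none higher (0.251%) and 1 lower, Kcna6 (7.55%). In border macrophages the CPM of Kcng2 (45.3, 34 UMIs) and Kcnj2 (14.7, 11 UMIs) was the highest of any ranked type, 2.32 times (1.60 to 3.26) and 2.22 times (1.10 to 4.01) the microglial level. Of these UMIs set 4 held 26 of Kcng2 and 9 of Kcnj2, and sets 2 and 3 held none of Kcnj2. Without set 4, an alternative chosen after seeing the data, the ratios were 1.84 (0.792 to 3.66) and 1.25 (0.151 to 4.59), and without set 1 that of Kcnj2 was 2.08 (0.943 to 3.99).

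Neighbouring members did not always share a cell type. By RefSeq gene order 5 pairs of members were neighbours, and in 3 the same type held most gated UMIs of both: Kcna1 and Kcna6 (oligodendrocytes), Kcna3 and Kcna2 (microglia), and Kcnj9 and Kcnj10 (oligodendrocytes). In the other 2, Kcnj16 and Kcnk16 lay mostly in ependymal cells, and their neighbours Kcnj2 and Kcnk5 in microglia and oligodendrocytes. Kcna2 and Kcna3 went opposite ways between sets in microglia.

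Of the other genes of potassium handling, 44 were described in 4 lists by the same rule. Among 10 sodium pump subunits, of which 9 were measured, smooth muscle cells had 4 higher and 2 lower (of all genes 7.76% and 8.44%), pericytes 3 higher and 1 lower (6.81% and 4.64%) and oligodendrocytes none higher and 6 lower (17.6% and 25.6%). Fxyd1, a small regulatory subunit of the pump, stood at 593, 638, 834 and 775 CPM in smooth muscle cells, and the beta subunit Atp1b1 between 876 and 1273 CPM there. The median log2 ratio of the pump list was -3.88 in oligodendrocytes, where all genes had 0.03. Among 7 measured cotransporters and kinases, oligodendrocytes had 2 higher and 1 lower: the sodium-potassium-chloride cotransporter Slc12a2 lay between 684 and 784 CPM there, and its activating kinase Stk39 between 107 and 148 CPM. In microglia none of these 7 was higher and 2 were lower, where 9.79% and 30.7% of all genes were. Of 6 measured channel partners, pericytes had 3 higher and none lower, among them Abcc9, the sulfonylurea receptor, which is itself a marker of the pericyte gate. In endothelial cells Pip5k1c was the partner called higher, at 72.8 CPM. Of 9 measured cation channels, endothelial cells had 2 higher and 1 lower, where 10.3% and 15.8% of all genes were. Those higher were Piezo1, a channel opened by stretch, between 38.7 and 48.5 CPM, and the calcium-activated Trpm4 between 7.62 and 9.91 CPM. Oligodendrocytes had the pacemaker channel Hcn2 higher, at 20.4 to 33.6 CPM, and 4 lower. P2rx4, an ATP-gated channel, was called neither way in microglia and lay apart between sets at 62.2, 66.9, 24.5 and 25.02 CPM, with sets 1 and 2 above sets 3 and 4 as for Kcnn4 and Kcna3.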

How the data were processed

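The authors deposited whole-number UMI counts per gene and barcode, not normalised, in 1 pooled matrix. Cell Ranger 5.0.0 made it, per the file headers, and the submitters' processing notes name STAR and the build Rnor_6.0. Per the labels' protocols the tissue was dissociated enzymatically, red cells were lysed and a 10x 3' kit was used. For the gene annotation and cell calling, settings were not given in the sources used here.

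Cells were kept with at least 500 UMIs, 300 genes and at most 20% mitochondrial UMIs, and 942 doublets called per set with Scrublet (scanpy 1.11.5) were removed. A cell was gated to a type when it held at least 3 markers and 30% of that type's list, with a lead of 20 percentage points over every unrelated list (any lead over a related one). These thresholds were set with the data in view. Among gated cells 1897 had a lead under 30 points, and 1386 ungated cells had 10 to 20. Of 135 marker entries 10, and of the 44 other genes 3, had no row or UMI. The members, gene lists and markers were chosen with earlier results of these data known.

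UMIs were summed per type and set. Poisson, binomial (Clopper-Pearson) and conditional binomial 95% intervals were exact, and an upper limit for 0 is 3 counts. Clusters came from the Leiden method without Kcn genes (2000 variable genes, 30 components, 15 neighbours, resolution 1), with igraph 0.11.9 and scikit-learn 1.9.0. TMM factors came from edgeR 4.0.16. The scripts were tested on simulated data. Named were the 24 members with the highest CPM in their leading type, Kcnmb4, members called higher in microglia, oligodendrocytes or endothelial cells, and up to 8 members per type that lay apart between sets; the others were added after their values were seen. Differences between the titled samples were not computed, since no set is linked to a title. Alternatives were other cell filters, clusters in place of the gate, a stricter gate, doublets kept, per-cell CPM, thinned cells, TMM scaling, other UMI minimums and each set left out. Values of some genes are not reported here.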

Additional observations from a re-analysis of the deposited data

How the results depend on the processing

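Of 194 counts under other settings 157 stayed within 1.5 times of the reported one, and of 994 values of single members 863 kept their call, 131 lost it and none reversed direction. Thinning to 1000 UMIs left 4 members higher and 3 lower in microglia, 3 and 5 in oligodendrocytes, 5 lower in endothelial cells, 0 higher in pericytes, smooth muscle, T and ependymal cells, and 0 apart in endothelial cells; 9066 genes, in place of 12332, reached the UMI minimum then. Thinning kept all 6 members apart in microglia. With at least 50 UMIs in every set 7 members were lower in microglia, 5 higher and 7 lower in oligodendrocytes, 0 higher in pericytes and T cells and 3 in smooth muscle cells, and with at least 1 UMI 4 were higher in ependymal cells. The stricter cell filter gave 1 higher in pericytes and 3 apart in microglia and 1 in endothelial cells. Clusters in place of the gate gave 4 lower in endothelial cells, 1 higher in pericytes, and 3 apart in microglia and 1 in endothelial cells. The stricter gate gave 1 higher in pericytes and T cells, and 3 apart in microglia and 1 in endothelial cells. TMM scaling gave 3 apart in microglia. In oligodendrocytes 3 lay apart with all barcodes or with doublets kept and 4 with a minimum of 20 UMIs, and in endothelial cells 1 with a minimum of 100. The causes were not tested. The share of all genes called under each other setting, or with a set left out, is not given here. These counts therefore do not show whether members lost calls more often than other genes did. Leaving out 1 set in turn gave 0 to 1 higher in endothelial cells (1 without set 4), 1 to 3 higher in ependymal cells (3 without set 3 and 3 without set 4) and 3 to 6 apart in microglia (3 without set 4).

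No paired analysis was possible because the labels give no replicate numbers and the sets are tied to no sample. With 1 library a set, a difference between sets cannot be told apart from a difference between libraries. Depth limits the rarer types: sets 3 and 4 held 21 and 15 ependymal cells and set 2 held 45 smooth muscle cells.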
